A study of Mus musculus with 14 samples.

Results

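The superior mesenteric artery (SMA) of heterozygous Drp1 knockout mice was compared with the SMA of their wild-type counterparts under normal conditions, without ischemia. Members of the comparison were all mice labelled as normal: 3 mice labelled Drp1 +/+ (WT) and 4 labelled Drp1 flox/+ (KO), 7 of the 14 mice sequenced. The other 7 mice, 3 WT and 4 KO, had undergone ischemia and were not part of the contrast. They did enter the filter on low counts, the scaling of the libraries and the estimate of the spread between mice. All animals were C57BL/6 mice 8 weeks old, and each library was made from the RNA of 1 SMA sample. The labels write the knockout genotype as a floxed allele and the series text speaks of a knockdown, whereas the study's methods describe heterozygous mice with a CRISPR/Cas9 frameshift. Loss of both alleles is known to be lethal in the embryo, so the KO mice kept 1 intact allele, and the artery was a whole tissue with all its cell types, not isolated muscle. Of 46095 gene symbols in the count table, 17693 had enough reads over the 14 mice to be tested, and 16418 with the 7 mice alone.

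Drp1, encoded by Dnm1l, is the dynamin-related GTPase that is recruited from the cytosol to the outer mitochondrial membrane, wraps around the organelle and constricts it until it divides. Fis1, Mff and the Mief proteins are its receptors on that membrane, while the mitofusins Mfn1 and Mfn2 and the inner-membrane GTPase Opa1 join mitochondria together. In arterial smooth muscle, the balance of fission and fusion is known for its bearing on calcium handling, reactive oxygen species and cell proliferation. The SMA is a muscular artery with elastic laminae, embedded in perivascular fat, and its smooth muscle contracts through the Rock kinases and through myosin light chain kinase.

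The knockout was aimed at exon 2 of Dnm1l, a stretch of 148 bases on the reverse strand of chromosome 16 (GRCm38, chr16:16345998-16346145), within a gene that spans 16312230 to 16358959. In the GENCODE annotation 6 of the 7 transcripts contain this exon, and in 3 of them the whole of it is coding, within the part of the gene that encodes the GTPase domain. In the transcript that the methods name, the annotated start codon lies downstream of this exon. Its first 30 bases, at chr16:16346116-16346145 on the reverse strand, are shown because the methods place the frameshift in this exon, whose length is not a multiple of 3 bases.
Dnm1l exon 2, first bases: agcagtgggaagagctcagtgctggaaagc

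The libraries differed in ways that the genotype does not describe. Total counts lay between 25612646 and 40255851. WT mouse 3 was sequenced on lane 1 and the other 6 mice on lane 8, so this lane and that mouse cannot be told apart. Reads from mitochondrial genes made up 9.40% to 25.1% of the WT counts and 15.8% to 19.9% of the KO counts. By Xist and Y-linked transcripts, 1 WT and 2 KO mice were male, and 2 WT and 2 KO mice were female. Perivascular fat differed more: Ucp1, the uncoupling protein of brown adipocytes, was at 40.2, 3948 and 639 CPM (counts scaled to a common library size) in WT mice 1 to 3 and at 557, 2784, 1149 and 4072 CPM in KO mice 1 to 4. WT mouse 1 thus had the least of this brown fat transcript and WT mouse 2 nearly as much as KO mouse 4. The mean log2 CPM of 20 smooth muscle markers was 9.20, 7.74 and 9.28 in WT and 9.12, 8.35, 8.89 and 8.44 in KO, lowest in WT mouse 2. Most of the atrial heart muscle transcripts examined were far higher in KO mouse 4 than in the other 6. In such whole-tissue libraries, fewer cells of a type and less RNA per cell cannot be told apart. Several results that rest on 1 of these libraries are given with and without it, or as a range over the fits that left out 1 mouse.

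Dnm1l transcripts were at 63.8, 65.7 and 90.9 CPM in the 3 WT mice and at 54.8, 60.8, 57.9 and 62.2 CPM in the 4 KO mice. Every KO mouse lay below every WT mouse, but KO mouse 4 was only slightly below WT mouse 1. The group means were 73.5 ± 15.1 CPM (SD, n = 3) and 58.9 ± 3.3 CPM (SD, n = 4), and the log2 fold change of KO over WT was −0.32 (SE 0.16, 95% interval −0.67 to 0.035). In edgeR's quasi-likelihood test the unadjusted p was 0.0735 and the Benjamini-Hochberg adjusted p (FDR) 0.974. The two-sided exact permutation test on the 7 values gave p = 0.0286, the smallest that 35 splits of the mice allow. Without WT mouse 3 the log2 fold change was −0.13 with an unadjusted edgeR p of 0.434, whereas it was −0.40 without WT mouse 2 and −0.41 without WT mouse 1, the 2 of the 7 such fits with an unadjusted p below 0.05. A frameshift allele may still be transcribed, so this level says how much transcript was present and not how much protein. Of the 23 other tested genes within 1 Mb of Dnm1l, 1 had an unadjusted p below 0.05, Tmem191c, at a log2 fold change of 1.40 (adjusted p = 0.866). It was chosen for mention after its value was seen.

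The genes of mitochondrial fission and fusion, Dnm1l included, gave 0 of 28 at an unadjusted p below 0.05, where 3.21% of all genes were higher and 2.04% lower. The count was 3 lower without WT mouse 1 and 3 lower without KO mouse 4. With the brown adipocyte marker level as a covariate it was 7 lower, where 4.35% of all genes were lower. The median log2 fold change of the 28 was −0.094, and 21 were negative, against a median of −0.02 over all genes tested. The receptor Fis1 was at 58.7, 61 and 54.2 CPM in WT and 58.2, 72.2, 61.8 and 65.5 CPM in KO, a log2 fold change of 0.15 (95% interval −0.17 to 0.47). Mff stood at −0.011 (−0.40 to 0.38), and Mief1, the adaptor that recruits Drp1, at −0.38 (−0.83 to 0.071). Among the fusion genes the values were −0.079 for Mfn1, −0.17 for Mfn2 and −0.16 for Opa1, with intervals from −0.65 to 0.49, from −1.05 to 0.72 and from −1.07 to 0.75. All 3 intervals end below a 2-fold increase, but those of Mfn2 and Opa1 reach past a 2-fold decrease. Pld6, a lipid-modifying enzyme of the outer membrane, had the lowest value of the list, −2.99, but it was read at 0, 5.04 and 0.34 CPM in WT and 0, 0.253, 0 and 0.644 CPM in KO, and WT mouse 2 held most of its reads (edgeR adjusted p = 0.974).

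No gene passed the limits of an FDR below 0.05 and a change of more than 1.5-fold in edgeR's quasi-likelihood test, 0 of 17693 (0% of genes tested). The smallest FDR was 0.557. At an unadjusted p below 0.05 there were 929 genes, 5.25% of those tested. Of these, 568 were higher in KO (3.21% of genes tested) and 361 lower (2.04%). Without overlap between the groups, 459 genes were higher in KO (2.59%) and 337 lower (1.90%). DESeq2 on the same counts called 51 genes past both limits (0.288%), 35 higher and 16 lower. Without WT mouse 2, edgeR called 29 genes (0.156%), 22 lower and 7 higher, with 11.4% of genes at an unadjusted p below 0.05, and 7 of those 29 were also among the calls of DESeq2. All differences below are therefore given with their values in each mouse and described as higher or lower, not as established changes.

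The precision behind this count was limited. The median standard error of a log2 fold change was 0.40, and the 95% interval lay wholly within a 1.5-fold change either way for 2890 genes (16.3%) and within a 2-fold change for 7643 (43.2%). For 31.1% of genes the interval reached past a 4-fold change on at least 1 side. WT mice varied more among themselves than KO mice did, with a median SD of log2 CPM of 0.63 against 0.44, and the WT SD was the larger for 67.6% of genes. The first principal component of the 7 mice carried 38.1% of the variance, with scores of −95.0, 52.3 and 2.0 in WT and −44.6, 28.5, 8.0 and 48.8 in KO, so the genotypes were interleaved along it. Among the genes that marked its ends were the Y-linked Eif2s3y, Ddx3y, Kdm5d and Uty with Pou2af1, Vpreb3 and Vwce at the end of WT mouse 1, and Xist with Elovl3, Mmd2, Clstn3, Fsd2, Car14, Acot4 and Aldh3b2 at the other.

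Among the genes at or above a mean of 1 CPM whose groups did not overlap, 251 were lower in KO and 317 higher, 17 and 24 of them unnamed gene models. The 10 named genes with the smallest p in each direction are described here, and each kept an unadjusted p below 0.05 in all 7 fits that left out 1 mouse. The exact permutation test on log2 CPM gave p = 0.0286, the smallest the design allows, for each of them except Wee1 and Mcpt4, where p was 0.0571. The genes were chosen for a small p and for groups without overlap, which all but sets these results in advance. They are therefore no further evidence.

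Nr4a1, an orphan nuclear receptor induced within minutes by stress and growth signals, led the lower genes. Its level was 406, 658 and 212 CPM in WT and 100.2, 56.2, 114 and 74.7 CPM in KO. The lowest WT mouse was well above the highest KO mouse, and the means differed 4.93-fold, at a log2 fold change of −2.30 (SE 0.38, edgeR adjusted p = 0.557, DESeq2 FDR 1.26e-05). Sh3pxd2a, whose product Tks5 is the scaffold of podosomes, was at 369.9, 429 and 448 CPM in WT and 196, 248, 222 and 232 CPM in KO. The 3 WT mice lay close together and all well above the 4 KO mice, with a 1.85-fold difference of the means and a log2 fold change of −0.89 (SE 0.16, edgeR adjusted p = 0.661, DESeq2 FDR 2.88e-08). The long noncoding RNA Snhg11 was at 0.767, 8.27 and 2.68 CPM in WT and at 0 counts in all 4 KO mice. A floor of 3 counts per library is a mean of 0.0822 CPM in KO, so Snhg11 was at least 47.5-fold lower there by the group means.

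Tmem82 and Slc25a34 are neighbours on the reverse strand of chromosome 4 (GRCm38, chr4:141613376-141618633 and chr4:141618824-141623821), with 190 bases between them. Slc25a34, a member of the mitochondrial carrier family, was at 137, 18 and 65.9 CPM in WT and 9.42, 9.01, 3.43 and 15.8 CPM in KO, a log2 fold change of −2.97 (SE 0.62, edgeR adjusted p = 0.822). Tmem82 was at 48.8, 1.88 and 8.95 CPM in WT and 0.536, 1.29, 0.836 and 1.35 CPM in KO, with a log2 fold change of −4.31 (SE 0.88). Over the fits that left out 1 mouse, the Tmem82 value ran from −4.86 to −2.43. WT mouse 1 was the highest and WT mouse 2 the lowest of the WT mice in both genes, and they were counted as separate rows although reads running from one into the other cannot be assigned with certainty. Irs2, which passes the insulin signal on from its receptor, was at 124, 105 and 60.9 CPM in WT and 47.4, 33.9, 49 and 30.3 CPM in KO and had a log2 fold change of −1.27. Cdkn1a, the cell cycle inhibitor p21, was at 314, 73.7 and 93.9 CPM in WT and 41.8, 24.6, 22.4 and 59.4 CPM in KO, 4.33-fold lower by the means (log2 fold change −2.12, SE 0.49). Its high mean in WT owed most to WT mouse 1, and over the fits that left out 1 mouse its log2 fold change ran from −2.47 to −1.18. The remaining leading genes were lower by smaller amounts, with log2 fold changes of −0.86 for the glutathione transferase Gstm7, −0.74 for the clathrin adaptor Picalm and −0.79 for the signalling scaffold Sash1. Picalm was abundant, at 591, 394 and 560.2 CPM in WT and 297, 265, 321 and 350.1 CPM in KO.

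**Figure D1:**
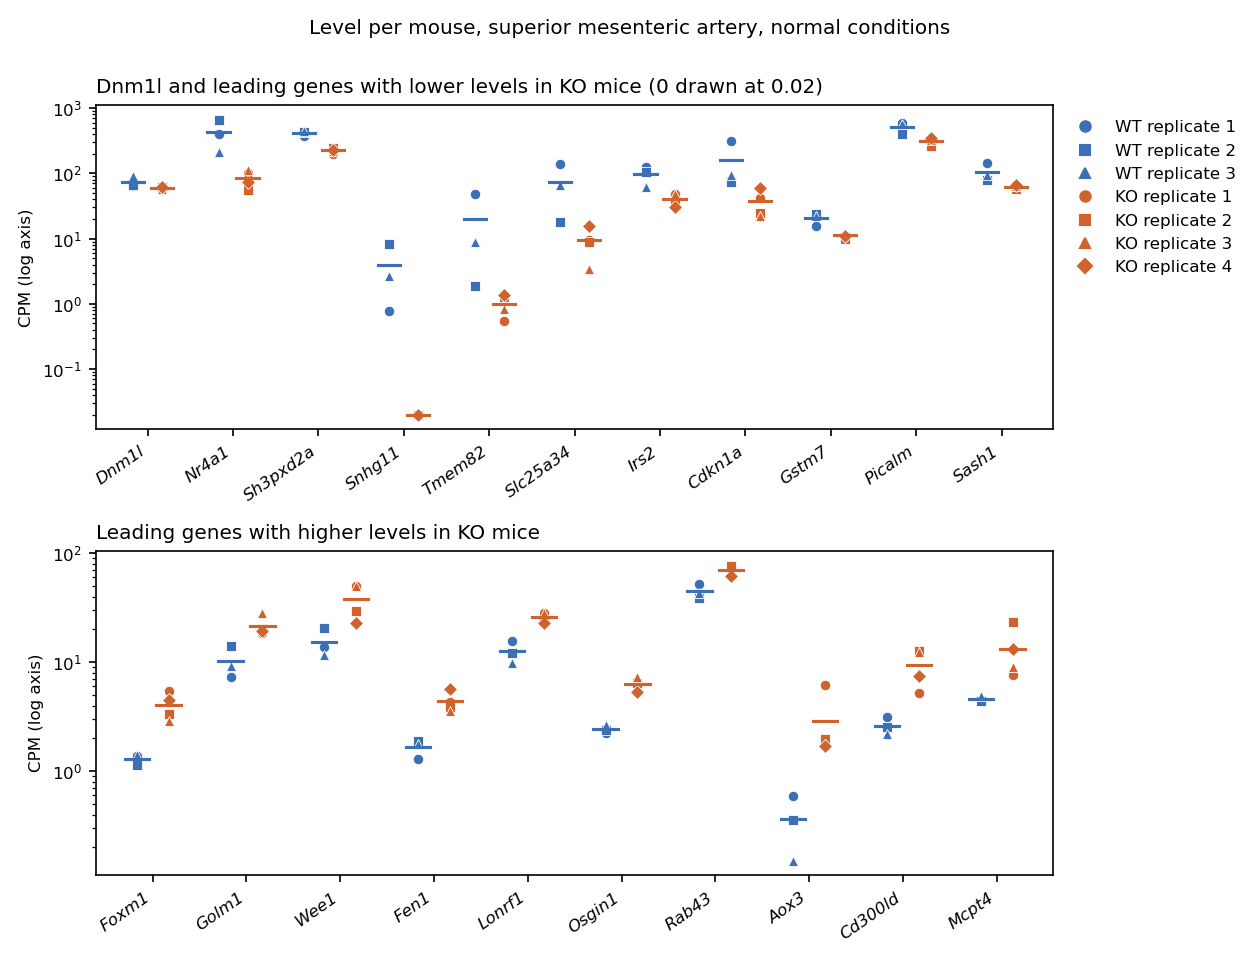
CPM on a log axis in each of the 3 WT and 4 KO mice under normal conditions for Dnm1l and the 10 leading genes that were lower in KO, and for the 10 leading genes that were higher; horizontal lines are group means and 0 is drawn at the lower edge. The groups do not overlap in any of these genes, and Nr4a1 sits between 212 and 658 CPM in WT and between 56.2 and 114 CPM in KO.

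Nr4a1 belongs to the immediate-early genes, which respond to stimuli without new protein synthesis. Of 31 such genes tested, 7 were lower in KO at an unadjusted p below 0.05 and 0 higher, against 2.04% and 3.21% of all genes, and the median log2 fold change was −0.27. All 3 members of the Nr4a family were among the 7. Nr4a3 was at 41.9, 55.8 and 19.3 CPM in WT and 3.47, 6.79, 16 and 16.1 CPM in KO (log2 fold change −1.88, SE 0.63, edgeR adjusted p = 0.866), with no overlap between groups. Nr4a2 was at 44, 75.5 and 12.1 CPM in WT and 11.1, 13.6, 14.2 and 16.9 CPM in KO (log2 fold change −1.65, edgeR adjusted p = 0.901), where WT mouse 3 lay within the range of the KO mice. Btg2, an antiproliferative target of p53, had a log2 fold change of −1.17 (edgeR adjusted p = 0.866), Fosl2 of −0.86 and the stress-induced Atf3 of −0.77. Fosl1 was read in WT mouse 3 only, at 0.189 CPM, and gives no usable fold change. The intervals of the classical members spanned 0. Fos was at 52, 20 and 58.3 CPM in WT and 34.8, 12.6, 42.6 and 26.9 CPM in KO (log2 fold change −0.57, 95% interval −1.61 to 0.47), Egr1 had a log2 fold change of −0.17 (−0.86 to 0.53) and Jun of −0.073 (−0.62 to 0.47). Leaving out 1 mouse at a time gave 4 to 7 lower and 0 higher genes, the fewest without KO mouse 3. How long each artery was handled before RNA extraction was not given in the sources used here, and its part in these values was not tested.

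Genes of the circadian clock stood apart, in opposite directions, between the KO mice and 2 of the 3 WT mice. In cells the clock runs as a loop in which Arntl (Bmal1) pairs with Clock or Npas2 to drive the Per, Cry, Nr1d and Dbp genes. The Per, Cry and Nr1d products in turn repress Arntl and its partners or the same promoters. Of 22 clock genes, 6 were higher and 4 lower in KO at an unadjusted p below 0.05, against 3.21% and 2.04% of all genes. The genes of the positive limb were among the lower ones. Arntl was at 60.7, 1.78 and 30.7 CPM in WT and 3.36, 1.71, 0.768 and 4.33 CPM in KO (log2 fold change −3.62, SE 0.83, edgeR adjusted p = 0.866, DESeq2 FDR 0.00269). Npas2 was at 52.4, 2.81 and 27.7 CPM in WT and 2.82, 3.28, 5.53 and 3.71 CPM in KO (−2.85, SE 0.64), and Clock at 91.1, 38.8 and 94.6 CPM and 42.9, 35.1, 32.1 and 35.5 CPM (−1.04, SE 0.27). In these genes WT mice 1 and 3 stood high while WT mouse 2 lay within or next to the range of the KO mice. Nfil3, a repressor that is itself under the clock, had a log2 fold change of −1.41.

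Several genes of the negative limb and of the outputs were higher in KO, whereas the repressor Nr1d1 was not, at a log2 fold change of −0.35 (SE 0.30). Per2, a core repressor, was at 67.8, 108 and 42.8 CPM in WT and 260.1, 131, 194 and 148 CPM in KO, every KO mouse above every WT mouse (log2 fold change 1.33, SE 0.41). The outputs Tef and Hlf, transcription factors of the PAR bZIP family, had log2 fold changes of 0.96 and 1.22, the repressors Bhlhe40 and Bhlhe41 of 1.07 and 1.19, and the nuclear receptor Nr1d2 of 0.75. Dbp, the third PAR bZIP factor, was at 1.92, 194 and 17.9 CPM in WT and 257, 264, 271 and 118 CPM in KO, and Ciart, a repressor of the Clock and Arntl pair, at 1.71, 26.5 and 1.21 CPM and 55.8, 28.7, 44 and 13.8 CPM. WT mouse 2 again lay with the KO mice in both, and neither gene had an unadjusted p below 0.05 with all 7 mice (0.13 for Dbp and 0.0639 for Ciart in edgeR).

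The clock values thus split the WT mice as well as the genotypes. Without WT mouse 2, 9 clock genes were higher and 5 lower at an unadjusted p below 0.05, where 11.4% of all genes were past that level. Of the 29 genes that then passed both limits, 5 were clock genes. These were Arntl (log2 fold change −4.18, edgeR FDR 0.0169), Npas2 (−3.39, FDR 0.00665), Clock (−1.36, FDR 0.0207), Hlf (2.65, FDR 0.0225) and Ciart (4.59, FDR 0.0427). Leaving out WT mouse 1 instead left 1 higher and 3 lower, leaving out WT mouse 3 left 1 and 4, KO mouse 2 left 2 and 4, and KO mouse 3 left 1 and 4. The time of day at which each mouse was killed was not given in the sources used here, and its part in these differences was not tested.

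**Figure D2:**
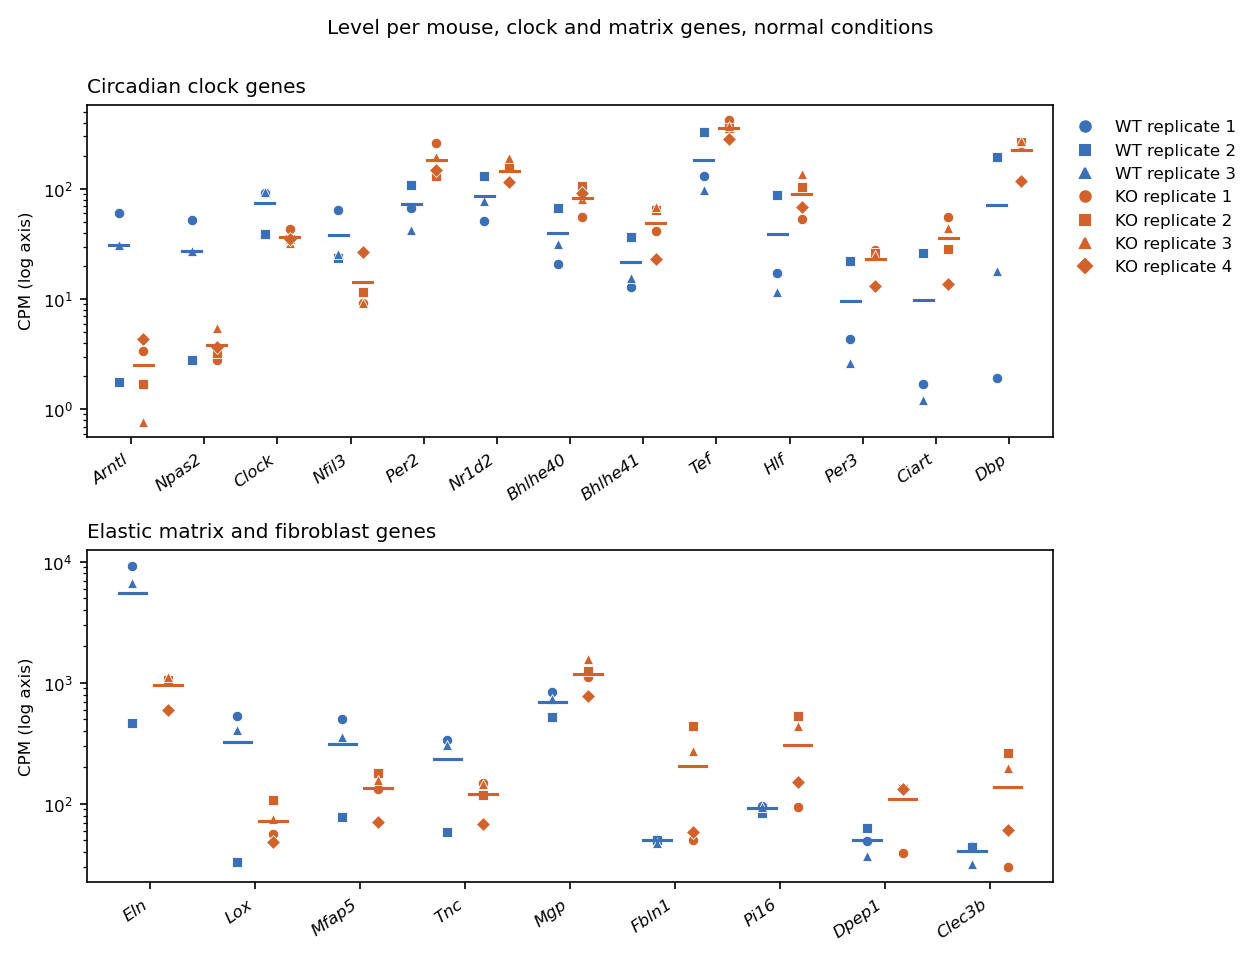
CPM on a log axis in each mouse for 13 clock genes and 9 genes of matrix and fibroblasts, with WT and KO mice in separate colours and lines at the group means. WT mice 1 and 3 stand above all KO mice in Arntl and Npas2 and below all of them in Ciart and Dbp, while WT mouse 2 lies near the KO mice, and the same mouse has 469 CPM of Eln against 9301 and 6652 CPM in the other WT mice.

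The promoters of these genes are shown where they hold the letters bound by the clock's own factors, the E-box CACGTG read by Arntl with Clock or Npas2, and TAGGTCA, the core of the element read by the Nr1d and Ror receptors. Windows from 250 bases before to 50 bases after the start were taken from RefSeq (GRCm38.p6) and searched on both strands, with 17 of the 22 clock genes matched. CACGTG was present in 5 of the 17 and in 8.09% of all 27025 symbols with a window, and TAGGTCA in 2 of the 17 and in 2.97% of all symbols. Of the genes with a lower level in KO, 0 of 4 held CACGTG and 2 of 4, Arntl and Nfil3, held TAGGTCA, and of those with a higher level 2 of 4, Tef and Bhlhe41, held CACGTG and 0 TAGGTCA. Of the genes not past 0.05, Per1, Cry1 and Ciart also held CACGTG, and Ciart, with 3 positions, is shown. In the stretches below capitals mark the matched letters, which for Nfil3 lie on the opposite strand. They were chr3:95882255-95882356 (reverse strand) for Ciart, chr15:81802534-81802563 (forward) for Tef, chr6:145865556-145865585 (reverse) for Bhlhe41, chr7:113207530-113207559 (forward) for Arntl and chr13:52981033-52981062 (reverse) for Nfil3.
Ciart: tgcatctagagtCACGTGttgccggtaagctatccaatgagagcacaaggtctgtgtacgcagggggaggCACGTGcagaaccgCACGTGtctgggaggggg
Tef: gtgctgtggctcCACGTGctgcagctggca
Bhlhe41: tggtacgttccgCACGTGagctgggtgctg
Arntl: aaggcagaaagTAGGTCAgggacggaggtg
Nfil3: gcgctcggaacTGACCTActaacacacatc
A match is a description of the letters and not of a bound site.

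Elastic fibre genes were lower in KO with the same split of the WT mice. Eln, the elastin precursor of the arterial laminae, was at 9301, 469 and 6652 CPM in WT and 1082, 1050.2, 1112 and 590.4 CPM in KO. WT mice 1 and 3 were far above all KO mice, while WT mouse 2 was below all of them, and the log2 fold change was −2.51 (SE 0.73, edgeR adjusted p = 0.866, and −3.07 with an FDR of 0.027 without WT mouse 2). Lox, which crosslinks elastin and collagen, was at 536, 33 and 405 CPM in WT and 56.7, 108, 75 and 48.2 CPM in KO (−2.17, SE 0.63, and −2.72 with an FDR of 0.0169 without WT mouse 2). Mfap5, a microfibril protein, had a log2 fold change of −1.22. Beside these 3, 2 of the 34 genes of collagen and elastic matrix were higher: Fbln1, a fibulin, and Mgp, the inhibitor of calcification (0.76). These counts of 2 higher and 3 lower stand against 3.21% and 2.04% of all genes. The median of the 34 was −0.086. When WT mouse 2 was left out the list gave 0 higher and 11 lower, 2 of them past both limits, Eln and Lox. In that fit 11.4% of all genes had an unadjusted p below 0.05 in either direction. Without KO mouse 1 the list gave 4 and 4, and without KO mouse 4, 6 and 2. Smooth muscle markers and clock genes moved with the same mouse, and their part in the elastin difference was not tested.

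Fibroblast markers were higher in some KO mice only. Fbln1 was at 51.5, 50.6 and 47.5 CPM in WT and 50.5, 444, 274 and 59 CPM in KO (log2 fold change 2.05, SE 0.85), so KO mice 2 and 3 stood far above the other 5. Of 14 fibroblast markers, 4 were higher, Dpep1, Pi16, Fbln1 and Clec3b, and 2 lower, Lox and Mfap5, against 3.21% and 2.04% of all genes, with a median log2 fold change of 1.27. Pi16, a marker of adventitial fibroblasts, was at 96.7, 84 and 94.7 CPM in WT and 94, 528, 439.6 and 151 CPM in KO. Without KO mouse 2, and likewise without KO mouse 3 or WT mouse 3, 0 of the 14 were higher at an unadjusted p below 0.05, whereas 9 were without KO mouse 1 and 9 without KO mouse 4. The mean log2 CPM of the 14 was 7.71, 6.76 and 7.24 in WT and 6.76, 9.05, 8.49 and 6.89 in KO.

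Among the leading higher genes, several act in cell division. Foxm1, the transcription factor of the G2 and M phase genes, was at 1.39, 1.14 and 1.4 CPM in WT and 5.42, 3.31, 2.89 and 4.48 CPM in KO. The 3 WT mice lay close together and every KO mouse was well above the highest of them, with a 3.07-fold difference of means and a log2 fold change of 1.62 (SE 0.37, edgeR adjusted p = 0.866, DESeq2 FDR 0.00455). Wee1, the kinase that holds back mitotic entry and is also under clock control, was at 13.8, 20.7 and 11.6 CPM in WT and 50.2, 29.4, 50.1 and 23 CPM in KO (1.31, SE 0.31). Fen1, the flap endonuclease of lagging-strand synthesis, was at 1.3, 1.88 and 1.77 CPM in WT and 4.32, 3.87, 3.57 and 5.71 CPM in KO (1.40, SE 0.33). A list of 35 cell cycle and replication genes, drawn up after these values were seen and so no independent evidence, had 10 higher and 0 lower at an unadjusted p below 0.05, against 3.21% and 2.04% of all genes, and a median of 0.73. Leaving out 1 mouse at a time gave 7 to 15 higher, the fewest without WT mouse 3. The proliferation marker Mki67 was at 5.46, 1.35 and 0.906 CPM in WT and 11.7, 7.66, 7.61 and 14 CPM in KO (1.99, edgeR adjusted p = 0.937). The mitotic cyclin Ccnb1 did not share this, at 2.77, 0.142 and 0.189 CPM in WT and 1.92, 0.842, 0.271 and 0.982 CPM in KO, where WT mouse 1 was the highest. Of the 35 genes, 28 had positive and 7 negative log2 fold changes. Beside Ccnb1 the negative ones included the replication genes Mcm6 (−0.38, mean 56.9 CPM in WT and 43.6 CPM in KO), Mcm7 (−0.21) and Pcna (−0.15, 32.9 and 29.7 CPM).

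The other leading higher genes were of several kinds. The Golgi membrane protein gene Golm1 had a log2 fold change of 1.08, Lonrf1 of 1.04, and Rab43, a small GTPase of Golgi traffic, of 0.64. Osgin1, which is induced by oxidative stress, was at 2.24, 2.38 and 2.68 CPM in WT and 5.92, 6.46, 7.27 and 5.37 CPM in KO (1.36, SE 0.33). Aox3, an aldehyde oxidase, was at 0.59, 0.355 and 0.151 CPM in WT and 6.15, 1.97, 1.76 and 1.69 CPM in KO (2.96), Cd300ld, a receptor of myeloid cells, at 3.13, 2.56 and 2.19 CPM in WT and 5.25, 12.6, 12.3 and 7.45 CPM in KO (1.84), and Mcpt4, a mast cell chymase that produces angiotensin II, at 4.46, 4.4 and 4.91 CPM in WT and 7.62, 23.2, 9.08 and 13.2 CPM in KO (1.53). Golga7b was at 0 in the 3 WT mice and at 0.846, 0.758, 0.271 and 0.644 CPM in KO, at least 6.13-fold higher against a floor of 3 counts per WT library.

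Genes of vessel tone were considered next, since the comparison bears on vascular reactivity. Of 63 genes for vasoconstriction and vasodilation, 4 were higher in KO at an unadjusted p below 0.05 and 0 lower, against 3.21% and 2.04% of all genes, and the median was −0.084. Bdkrb2, the bradykinin receptor B2, was at 1.48, 2.81 and 0.981 CPM in WT and 4.68, 7.58, 12 and 2.61 CPM in KO. KO mouse 4 lay below WT mouse 2 and the other KO mice above all WT mice, and its log2 fold change was 1.94 (SE 0.51, edgeR adjusted p = 0.866, DESeq2 FDR 0.0428). S1pr2, a sphingosine 1-phosphate receptor, was at 4.22, 3.34 and 4.34 CPM in WT and 2.93, 16.6, 8.2 and 6.96 CPM in KO (1.13), the prostacyclin receptor Ptgir at 2.77, 5.65 and 2.38 CPM in WT and 5.36, 11.9, 6.87 and 5.4 CPM in KO (1.04) and the adrenoceptor Adra2a at 5.99, 4.19 and 3.43 CPM in WT and 6.85, 10.6, 21.4 and 5.74 CPM in KO (1.30). The count was 1 without KO mouse 2, 2 without WT mouse 3, and 5 higher with 9 lower without WT mouse 2. In that last fit 11.4% of all genes were past that level in either direction. The endothelial nitric oxide synthase gene Nos3 had a log2 fold change of 0.077 (95% interval −0.56 to 0.72) and the angiotensin receptor gene Agtr1a of −0.53 (−1.88 to 0.82).

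Regulators of small GTPases, through which smooth muscle sets its calcium sensitivity, gave 11 higher and 3 lower of 110 at an unadjusted p below 0.05, against 3.21% and 2.04% of all genes. The smallest p belonged to Arhgef19, a guanine nucleotide exchange factor, at 8.73, 11.3 and 7.51 CPM in WT and 12.9, 19.6, 21.4 and 16.2 CPM in KO (0.93, SE 0.29, edgeR adjusted p = 0.866). It was followed by Arhgap23, at −0.59, and Arhgap22, at 1.54. Several of the higher genes are those of blood cells: Arhgdib, Prex1, Arhgap30, Rac2, Arhgap15 and Dock10 are mainly expressed in leukocytes, whose other markers are described further on, and the part of those cells was not tested. Dock3 and Arhgef26 were also among the higher genes, and Arhgap12 and Rapgef2 among the lower. The effector kinases had log2 fold changes of −0.53 for Rock1 and −0.47 for Rock2, and RhoA of −0.071 (95% interval −0.43 to 0.29). Without WT mouse 3 the counts were 6 higher and 2 lower. They were 9 and 12 without WT mouse 2, where 11.4% of all genes were past that level in either direction.

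Of 48 genes of actin and myosin II, 0 were higher and 2 lower, against 3.21% and 2.04% of all genes. These were Shroom4, which binds actin, at −0.61 (edgeR adjusted p = 0.866), and the regulatory light chain Myl12a at −0.83 (adjusted p = 0.866). Fmnl3, a formin, had the third smallest p of the list, at 0.38. The myosin light chain kinase Mylk was at 1344, 455 and 1213 CPM in WT and 1508, 759, 1132 and 760.2 CPM in KO (0.050, 95% interval −0.76 to 0.87), and Myh11, the smooth muscle myosin heavy chain, at 7785, 2726 and 8939 CPM in WT and 8534, 4727, 6907 and 4002 CPM in KO (−0.10, −0.99 to 0.79). When WT mouse 2, which had the lowest smooth muscle marker level, was left out, 12 of the 48 were lower and 0 higher. In that fit 11.4% of all genes had an unadjusted p below 0.05 in either direction.

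**Figure D3:**
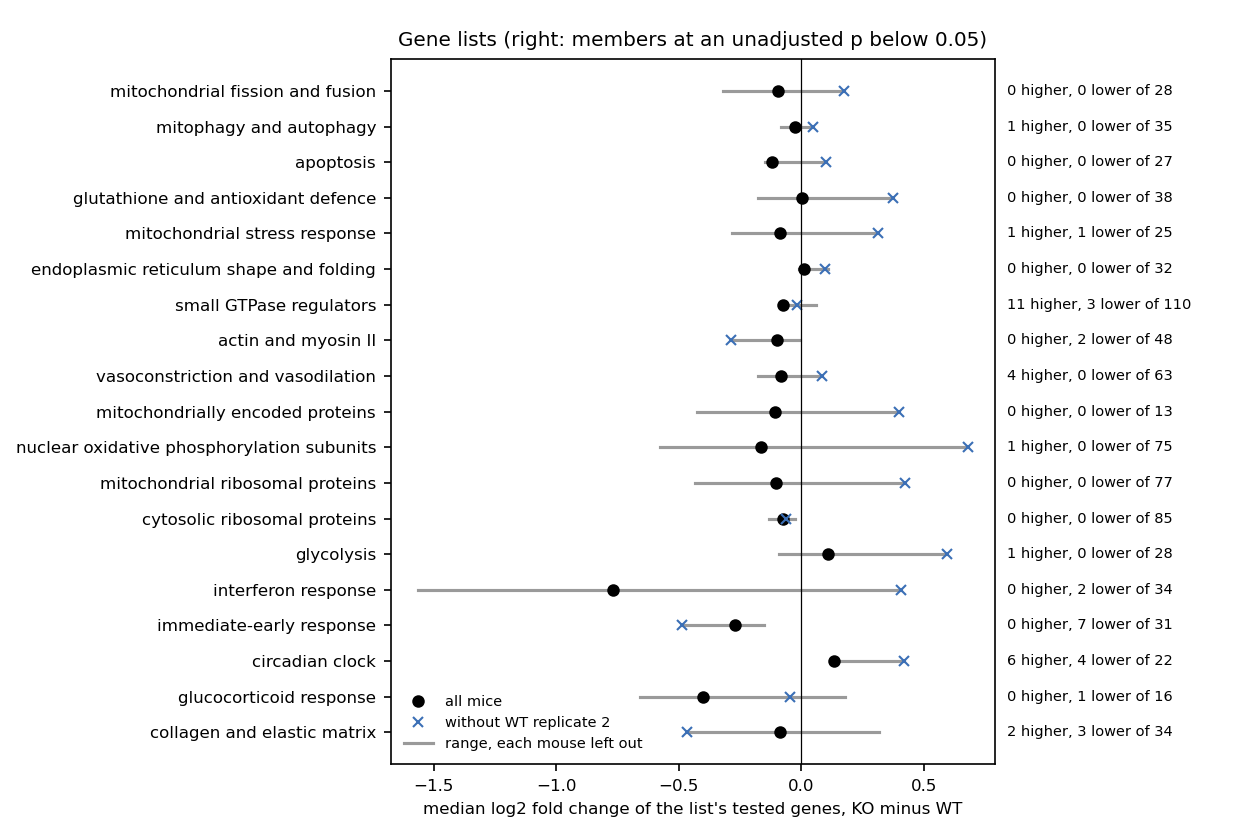
Median log2 fold change of KO over WT for each of 19 gene lists, with all 7 mice, without WT mouse 2, and as the range over the fits that left out 1 mouse, beside the counts of genes higher and lower at an unadjusted p below 0.05. The medians lie close to 0 with all 7 mice for most lists, and leaving out WT mouse 2 moves nuclear oxidative phosphorylation from −0.17 to 0.68.

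With all 7 mice and no covariate, the lists that follow mitochondrial function showed few genes past an unadjusted p of 0.05. Of 75 nuclear subunits of oxidative phosphorylation 1 was higher, against 3.21% of all genes. It was Atp5g2, a subunit of the ATP synthase ring, at 1.15 (edgeR adjusted p = 0.933). The median of the 75 was −0.17 with 62 negative, and without WT mouse 2 it was 0.68. These genes are strongly expressed in brown fat, whose markers were high in WT mouse 2, and the part of that fat in this move was not tested. With the brown adipocyte marker level of each mouse as a covariate, 39 of the 75 were lower and 0 higher at an unadjusted p below 0.05, where 4.35% of all genes were lower and 5.50% higher, and 0 of them passed an FDR of 0.05 with a 1.5-fold change. Of 13 mitochondrially encoded proteins 0 were past that level, with log2 fold changes of −0.24 to 0.11, among them −0.23 for ND3, −0.23 for ND5 and −0.19 for ND4L, subunits of complex I. Ndufb11 and Cox7c, nuclear subunits of complexes I and IV, stood at −0.49 and −0.40.

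Removal of damaged mitochondria by autophagy is tied to fission. Of 35 such genes 1 was higher, against 3.21% of all genes. It was Tfeb, the transcription factor of lysosomal genes, at 33.4, 29.8 and 28.8 CPM in WT and 48.4, 39.8, 41.4 and 35.4 CPM in KO (0.43, SE 0.18, edgeR adjusted p = 0.929). Rnf41, a ubiquitin ligase, and Usp30, a mitochondrial deubiquitinase, came next at −0.28 and −0.23, and the kinase gene Pink1 stood at −0.14 (95% interval −0.65 to 0.37). Of 27 apoptosis genes 0 passed that level, and the smallest p values were those of Bik (−0.85), Bmf (−0.40) and Bid (0.73). Of 38 genes of glutathione and antioxidant defence 0 passed, with −1.60 for the secreted peroxidase Gpx3, 1.49 for the glutathione transferase Gstp1 and 0.94 for Gsta3. Bax, which permeabilises the outer membrane, had a log2 fold change of −0.20 (95% interval −0.64 to 0.23), and the mitochondrial superoxide dismutase Sod2 of 0.15 (−1.28 to 1.59).

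In the mitochondrial stress response, 1 of 25 genes was higher and 1 lower, against 3.21% and 2.04% of all genes. Ddit3, the stress transcription factor CHOP, was at 19.2, 17.8 and 20 CPM in WT and 38.1, 24.7, 33.4 and 24.1 CPM in KO, every KO mouse above every WT mouse (0.66, SE 0.24, edgeR adjusted p = 0.91). Clpx, the unfoldase of the matrix protease, was at 49.1, 102 and 81.5 CPM in WT and 41.4, 49.4, 34.5 and 68.2 CPM in KO (−0.68, edgeR adjusted p = 0.91). The secreted stress signal Gdf15 had a log2 fold change of −1.22 (edgeR adjusted p = 0.981). Of 32 genes for the shape and folding load of the endoplasmic reticulum, 0 passed, and Pdia3, Calr and P4hb, which assist protein folding, stood at 0.44, 0.38 and 0.31. Of 77 mitochondrial ribosomal protein genes 0 passed, with Mrpl40 at 1.93. With the brown adipocyte covariate 18 were lower, where 4.35% of all genes were. When WT mouse 2 was left out 5 were higher and 1 lower, where 11.4% of all genes were past that level in either direction. Of 85 cytosolic ribosomal protein genes 0 passed, with Rps28 at −1.08. In glycolysis 1 of 28 was higher, against 3.21% of all genes. It was the enolase Eno2, at 8.56, 3.55 and 3.62 CPM in WT and 20.7, 13.1, 12.9 and 4.85 CPM in KO (1.29, edgeR adjusted p = 0.866).

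Interferon-induced genes were high in 1 WT mouse. The mean log2 CPM of 34 such genes was 3.19, 6.33 and 4.33 in WT and 3.41, 3.47, 3.47 and 5.68 in KO, so WT mouse 2 and KO mouse 4 stood above the rest. The list had 0 higher and 2 lower of 34 genes, against 3.21% and 2.04% of all genes, Oasl1 (−3.05, edgeR adjusted p = 0.937) and Ddx58 (−1.23, adjusted p = 0.937), sensors of viral RNA, with a median of −0.77. Without WT mouse 2 the median was 0.41 with 0 genes past that level, against 11.4% of all genes. Lower were 8 genes without KO mouse 4, 8 without WT mouse 1 and 14 with the brown adipocyte covariate. With that covariate 4.35% of all genes were lower. Of 16 glucocorticoid-induced genes 1 was lower, Cdkn1a, given above, against 2.04% of all genes. Hif3a stood at −1.57 and Fkbp5, a chaperone of the receptor, at 27.8, 0.781 and 0.604 CPM in WT and 2.68, 3.51, 0.474 and 2.76 CPM in KO (−2.05, 95% interval −4.48 to 0.38).

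The study lists 12 genes for normal conditions, chosen on these samples, so their directions here are no independent evidence. Of the 12, 5 were higher and 2 lower at an unadjusted p below 0.05, against 3.21% and 2.04% of all genes. Over all 12 the log2 fold changes ran from −2.67 to 2.32. Bdkrb2, Shroom4 and Ddx58, given above with other lists, are among the 12. The smallest edgeR FDR among them was 0.866.

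Markers of the artery's own cells checked the tissue label. Acta2, smooth muscle actin, was at 9559, 3357 and 12943 CPM in WT and 12694, 5747, 7854 and 4785 CPM in KO, and Myh11 was high in all 7 mice. Of 20 smooth muscle markers 0 had an unadjusted p below 0.05, with the smallest p for Myocd, the myocardin coactivator (−1.08), Synpo2 (−0.78) and Tagln (−0.74). Leaving out WT mouse 2 left 6 lower, where 11.4% of all genes were past that level in either direction. Of 16 endothelial markers 0 passed, with the tight junction genes Cldn5 and Esam at −1.46 and −0.24 and the cadherin Cdh5 at −0.44. Of 13 brown adipocyte markers 0 passed, although the mean log2 CPM ran from 2.36 in WT mouse 1 to 7.27 in WT mouse 2, and Elovl3, Ppargc1a and Cox8b stood at 1.76, 0.52 and −0.40. Of 14 white adipocyte markers 0 passed, with Plin4 at −0.41, Car3 at −1.04 and Nnat at −0.92.

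All 14 macrophage markers had positive log2 fold changes, 2 of them with an unadjusted p below 0.05 against 3.21% of all genes, and the median was 0.98. Their summed level was 768, 379.9 and 490 CPM in WT and 646, 1038, 827 and 909.6 CPM in KO, so KO mice 2 to 4 lay above all WT mice and KO mouse 1 within them. C1qc, a complement subunit, was at 47.3, 36 and 29.6 CPM in WT and 41.2, 109, 68.3 and 124 CPM in KO (1.19, edgeR adjusted p = 0.923), the growth factor receptor Csf1r at 40, 25.7 and 23.4 CPM in WT and 24.8, 101, 68.8 and 50 CPM in KO (1.04) and Folr2, a marker of resident macrophages, at 16.8, 5.96 and 7.13 CPM in WT and 15.9, 25.4, 22.2 and 21 CPM in KO (1.08). Without WT mouse 1 the count was 8, and it was 0 without WT mouse 2, WT mouse 3 or KO mouse 2. Of 11 lymphocyte markers 1 was higher, against 3.21% of all genes. It was Cd3e of the T cell receptor complex, at 0.413, 0.249 and 0.566 CPM in WT and 1.89, 0.309, 0.633 and 8.25 CPM in KO (2.75), followed by Cd3g (1.66) and Cd4 (2.44). KO mouse 4 held most of the Cd3e level, and without that mouse 0 markers were higher and 1 lower. The count higher was also 0 when any 1 WT mouse was left out. Of 8 neutrophil markers 0 passed, with Retnlg at 1.92, Cxcr2 at 1.68 and Il1b at 1.45. Of 7 red cell genes 1 was higher, Alas2, the first enzyme of haem synthesis in erythroid cells (1.42, edgeR adjusted p = 0.91), against 3.21% of all genes. The count was 3 with DESeq2 and 6 with only the 7 mice fitted. Their summed level was 254, 193 and 107 CPM in WT and 435, 448, 596 and 347 CPM in KO, without overlap between groups. Hba-a1 stood at 1.43 and Hbb-bs at 1.29, while 1 of the 7 went the other way, at −1.17. Without overlap, 4 of the 7 were higher in KO and 1 lower, against 2.59% and 1.90% of all genes. How much blood each artery held was not tested.

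Markers of other cells of the vessel wall and its surroundings gave few genes past an unadjusted p of 0.05. Of 18 sympathetic neuron markers only 7 had enough reads to be tested, and 0 passed. Without overlap, 2 of the 7 were higher in KO, against 2.59% of all genes, both at low levels. Hand2, a transcription factor, was read at 0, 0.284 and 0.566 CPM in WT and 0.959, 1.09, 1.54 and 1.35 CPM in KO (2.13). Tubb3, a neuronal tubulin, was read at 0.767, 0 and 0.264 CPM in WT and 0.79, 1.26, 1.51 and 1.66 CPM in KO (1.90), where KO mouse 1 barely exceeded WT mouse 1. Stmn2 stood at 0.83. Of 12 Schwann cell markers 0 passed, with Cnp at 0.38, Gldn at 0.47 and Prx at 0.38. Of 12 markers of mesothelial cells, which line the mesentery, 1 was higher, against 3.21% of all genes. It was Muc16, at 0.531, 2.81 and 1.7 CPM in WT and 7.31, 1.8, 18.8 and 0.675 CPM in KO (2.09), and Gpm6a and Wt1 stood at 1.67 and 2.02. Of 12 intestinal epithelial markers only 5 had enough reads to be tested, with 1 lower, Lgals4 (−1.02), against 2.04% of all genes, beside Slc26a3 (3.72) and Vil1 (1.69). Of the pancreatic acinar markers 2 were tested, Cela1 (−0.18) and Cpb1 (−0.067), and of skeletal muscle 9, with 0 past that level, Xirp2, Ckm and Tnnc2 having the smallest p.

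**Figure D4:**
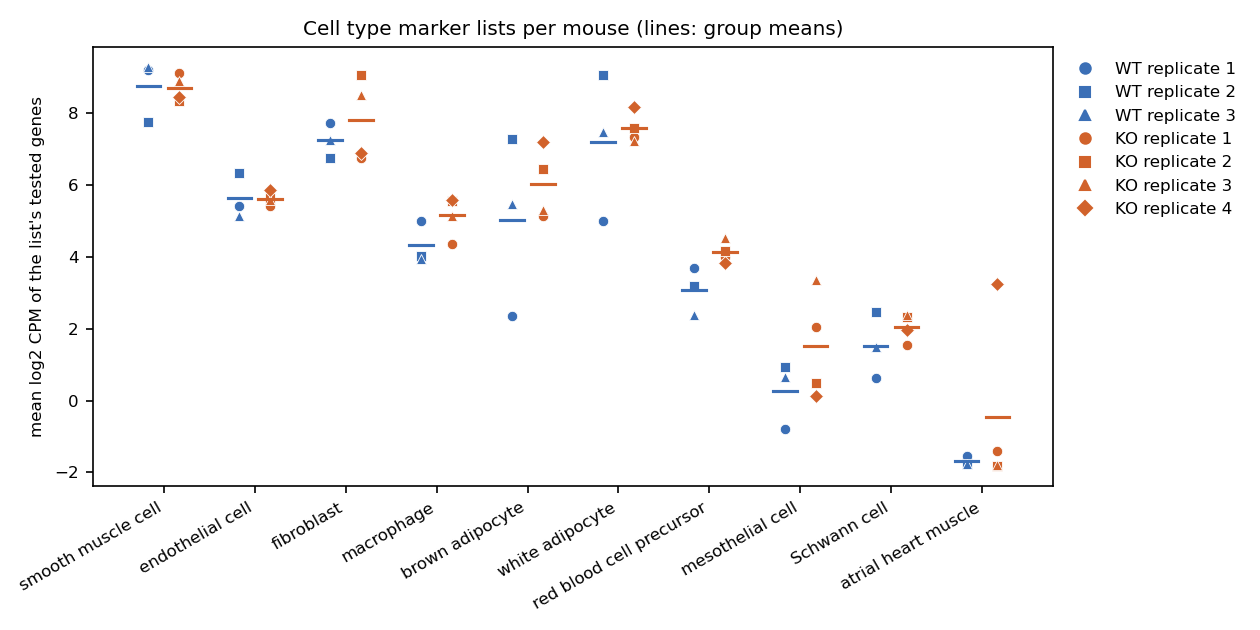
Mean log2 CPM of 10 cell marker lists in each of the 3 WT and 4 KO mice under normal conditions. Smooth muscle markers lie between 7.74 and 9.28 in all 7 mice, brown adipocyte markers range from 2.36 to 7.27 within WT alone, and atrial heart muscle markers stand at 3.23 in KO mouse 4.

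Most of the atrial heart muscle transcripts examined stood highest in KO mouse 4. A list of 20 such genes, 19 of them tested, was added after this was seen, and its mean log2 CPM was −1.55, −1.77 and −1.76 in WT and −1.42, −1.81, −1.79 and 3.23 in KO. Mybphl, a myosin-binding protein of the atrium, was at 0, 0 and 0 CPM in WT and 0.0282, 0.112, 0 and 8.19 CPM in KO, and Xirp2, a protein of striated muscle, at 0, 0 and 0 CPM in WT and 0, 0, 0 and 5.09 CPM in KO. Ryr2, also listed, was highest in WT mouse 3, at 44.4 CPM against 41.4 CPM in KO mouse 4. So was Tbx20, at 4.15 CPM against 3.16 CPM. Of the 51 genes called by DESeq2, 8 were on this list, 13 were at 0 in all 3 WT mice, and 31 had groups that did not overlap. In 11 of the 13, 1 KO mouse had more than the other KO mice together. Called genes with reads in WT were not examined for this. Il6, with the smallest DESeq2 FDR of all (9.04e-11), was at 0, 0 and 0 CPM in WT and 0.621, 0, 0.361 and 0.92 CPM in KO, and its unadjusted edgeR p was 0.0638.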

How the data were processed

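RNA was extracted with Trizol from the SMA of 14 mice and sequenced on an Illumina instrument. The authors deposited whole-number read counts per gene symbol in a table with 1 column for each mouse, without normalization. Per the submitters' processing notes, HISAT2 2.0.4 and the mm10 genome were used; the counting program, the annotation and the use of strand were not given in the sources used here, so overlapping genes and close copies may share reads. Groups were taken from the labels.

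Counts were normalized by TMM and fitted with edgeR 4.0.16 (R 4.3.3; limma 3.58.1), with 1 mean for each of the 4 groups and the spread shared over all 14 mice. Genes were kept by edgeR's filterByExpr over all 14 mice, and marker level and sex terms were also fitted on all 14. KO was tested against WT under normal conditions by the quasi-likelihood test, with Benjamini-Hochberg adjustment over the 17693 genes kept, an FDR below 0.05 and a fold above 1.5. The study's methods name a random-variance F test with the same limits, and the test suited to counts was used in its place. Standard errors were derived from the F statistic, and intervals are 95% intervals. CPM values used TMM library sizes, and 3 counts corresponded to 0.0678 to 0.113 CPM. P-values measure the spread between these mice. The samples of each group differed by more than sampling noise. Counting intervals and floors cover counting error only.

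The gene lists and the members they hold were chosen with earlier results of these data known. The genes named are the 10 with the smallest p in each direction among those at a mean of at least 1 CPM whose groups did not overlap, Dnm1l, the ends of the first principal component, the 3 with the smallest p of each list, clock and DESeq2 genes, and a few members of each list named for their role after the values were seen. Alternatives were DESeq2 1.42.0, limma-trend, other size factors, other filters, the 7 mice alone, a replicate block, marker level and sex as terms, and leaving out each mouse. The code was tested on simulated data.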

Additional observations from a re-analysis of the deposited data

Results flagged for a closer look

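In 8 of 74 gene and list levels checked among the 4 KO mice, 1 mouse lay further from the other 3 than Dixon's 95% limit for 4 values allows. Chance alone gives about 1 such case in 20, and many of these levels share genes or mice. KO mouse 4 was the mouse apart in 7 of them. In the clock it had 118 CPM of Dbp and 118 CPM of Nr1d1, the lowest of the KO mice, where Nr1d1 was at 213, 230.3 and 308 CPM in WT and 215, 232, 223 and 118 CPM in KO, and 26.9 CPM of Nfil3, the highest of the KO mice, where the group levels were 64.3, 23.8 and 25.7 CPM in WT and 9.34, 11.7, 9.22 and 26.9 CPM in KO. Its Eln level of 590.4 CPM was the lowest of the KO mice. By mean log2 CPM it stood highest among KO mice for mitophagy and autophagy at 5.85, for the interferon response at 5.68 and for atrial heart muscle at 3.23. KO mouse 1 stood lowest for endoplasmic reticulum shape and folding at 5.86. The part of the heart muscle transcripts of KO mouse 4 in its other values was not tested.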

How the results depend on the processing

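The count of genes past both limits was 0 with all alternatives run except DESeq2 (51) and the fits that left out 1 mouse, where it ran from 0 to 29, the highest without WT mouse 2. Genes at an unadjusted p below 0.05 numbered 929, but 1433 without a filter on low counts, 502 with the 7 mice alone, 1743 with the brown adipocyte marker level as a covariate, and 699 to 2119 when 1 mouse was left out, the highest again without WT mouse 2; limma-trend gave 954 and a sex term, added after the data were seen, 924. Genes whose 95% interval lay within 1.5-fold numbered 2890, but 1626 with the 7 mice alone, and 7643 lay within 2-fold. Same-numbered mice did not pair: their deviations correlated at 0.217, 0.132 and 0.0254, and only WT mouse 1 correlated best with its own number. With the replicate block there were 0 genes past both limits and 949 at an unadjusted p below 0.05.

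Median log2 fold changes of lists moved beyond 1 SD as follows. With the brown adipocyte covariate they were 1.99 for sympathetic neuron, 0.78 for intestinal epithelium and 1.07 for skeletal muscle. With limma-trend they were 1.14 for intestinal epithelium, 0.060 for apoptosis and 1.31 for atrial heart muscle. For intestinal epithelium and atrial heart muscle they were −1.05 and 2.15 with at least 10 counts in every mouse, 0.77 and 2.17 with the 7 mice alone, and 0.86 and 1.38 with the replicate block. Leaving out 1 mouse gave −0.36 to 0.48 for endothelium, −0.71 to 2.16 for intestinal epithelium, 0.15 to 1.16 for skeletal muscle, −0.15 to 0.10 for apoptosis, −0.28 to 0.31 for mitochondrial stress, −0.43 to 0.40 for mitochondrially encoded proteins and 0.12 to 0.42 for the clock, each highest without WT mouse 2. It gave −0.091 to 0.060 for GTPase regulators, −0.66 to 0.18 for glucocorticoid response and 0.47 to 1.25 for the cell cycle, each highest without WT mouse 1, and 0.077 to 1.52 for neutrophils and −0.16 to 6.66 for atrial heart muscle, each lowest without KO mouse 4.

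Named genes whose sign turned had no unadjusted p below 0.05 with all 7 mice. With the replicate block these were Cox8b (0.12), Retnlg (−1.09) and Mrpl40 (−0.91), with limma-trend Cox8b (0.59) and Car3 (0.35), with the brown adipocyte covariate Retnlg (−0.75), Il1b (−0.34) and Cpb1 (0.039), and with the sex term Cela1 (0.0043). Without WT mouse 2 the sign turned for Esam (−0.42 to 0.10 over the fits that left out 1 mouse), Cdh5 (−0.76 to 0.48), Cox8b (−0.95 to 1.24), Car3 (−1.59 to 1.29), Nnat (−1.33 to 0.43), Pld6 (−4.38 to 0.41), Gpx3 (−2.09 to 0.38), ND3 (−0.49 to 0.40), ND5 (−0.55 to 0.13), ND4L (−0.43 to 0.21), Ndufb11 (−0.91 to 0.34), Cox7c (−0.78 to 0.14) and Rps28 (−1.50 to 0.50). It turned without WT mouse 1 for Ppargc1a (−0.021 to 1.21), Hif3a (−2.05 to 0.37) and Fkbp5 (−2.61 to 1.76), without KO mouse 4 for Egr1 (−0.46 to 0.033), Retnlg (−2.82 to 6.52), Il1b (−0.069 to 6.24) and Mrpl40 (−1.62 to 2.66), and with more than 1 mouse for Cela1 (−0.84 to 0.98) and Cpb1 (−0.94 to 0.34). The cause of these changes was not tested. With 3 and 4 mice, a gene of the median standard error could not be told from no change at a 1.5-fold difference.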
